A study of Mus musculus with 12 samples.

Results

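Immature CD8 single-positive thymocytes that had lost the zinc finger genes Zfp148 and Zfp281 were compared, gene by gene, with control thymocytes from the same sort gate. The comparison rests on 6 of the 12 libraries of the study, 3 titled as control (Ctrl) and 3 titled as double knockout (dKO), and on 13383 tested genes out of 53656 gene rows. The mice were Zfp148 fl/fl and Zfp281 fl/fl, so that both copies of both genes carried loxP sites in every group. In the dKO mice the Cd4 promoter drives Cre recombinase, which acts from the double-positive stage of thymocyte development onwards, and the controls lack Cre. What Cre does on its own therefore cannot be told apart from the loss of the genes. The ImCD8 gate was CD44low, CD8 positive, CD4 negative, TCRb positive and CD69 positive. The remaining 6 libraries, again 3 Ctrl and 3 dKO, came from immature CD4 thymocytes (ImCD4, sorted as CD44low and CD69 positive cells with CD4 but neither CD8 nor H2-Kb) and served for the shared estimate of spread and for a test of whether the effect differed. The sources used here give neither the age nor the strain background nor the number of animals. The p-values therefore reflect only how libraries of 1 group vary, which may be technical.

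Titles and genotype labels contradict each other across the 6 ImCD8 libraries: those titled Ctrl are marked as Cre positive and those titled dKO as Cre negative. Groups were taken from the titles, and "control" and "dKO" below mean the libraries so titled. Every direction depends on that choice.

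Zfp148 (also known as ZBP-89) and Zfp281 (ZBP-99) are closely related zinc finger transcription factors that bind G-rich DNA and can activate or repress their targets. CD8 single-positive thymocytes arise from double-positive cells selected on MHC class I. In them Runx3 keeps Cd4 and the CD4-lineage factor gene Zbtb7b silent and supports the cytotoxic program, while the Id proteins restrain the E protein factors that act earlier. The CD69 positive state marks recent T cell receptor signalling, before cells acquire the receptors with which they leave the thymus.

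The ImCD8 libraries held 7315833 to 10768351 gene counts and 18504 to 19923 genes with at least 1 count. On the first principal component of these 6 libraries (39.4% of the variance) the control libraries lay from -25.17 to -19.56 and the dKO libraries from 17.05 to 29.16. Pairs of control libraries differed by a chi-square of 4.91 to 7.61 per degree of freedom and pairs of dKO libraries by 9.63 to 17.1, so that no 2 libraries agreed within counting noise. The widest of these differences was between dKO replicates 2 and 3. On the second component (24.1%) replicate 3 of both groups lay at 21.2 and 23.1 and the other 4 libraries from -24.7 to 3.86. Over all 12 libraries, replicate 3 of each group lay below 0 on the third component (5.31%) and the other 8 above it. The reads with more than 1 alignment made up 4.61% to 4.76% in control and 4.47% to 5.39% in dKO, and mitochondrial genes 1.12% to 1.47% and 1.27% to 1.70% of counts.

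The targeted genes went with the titles. Zfp148 (mm10, GENCODE M21: chromosome 16, 33380836 to 33504363, plus strand) measured 162, 171 and 163 CPM (counts scaled to a fixed total, on the TMM-scaled library size) in control replicates 1, 2 and 3 and 45.6, 62.8 and 56.3 CPM in dKO replicates 1, 2 and 3; values below keep this order, with control before dKO. Zfp281 (chromosome 1, 136624901 to 136630053, plus strand) measured 128, 117 and 112 CPM in control and 14.9, 13.3 and 10.2 CPM in dKO. The groups did not overlap for either gene, and all 6 libraries were on the side their title gives. The log2 fold change of dKO over control was -1.59 ± 0.09 for Zfp148 and -3.22 ± 0.14 for Zfp281 (SE; edgeR adjusted p = 2.63e-08 and 2.97e-09). A change given below as a value ± SE is always this log2 fold change. How much of the remainder is intact transcript is unknown, since the sources used here do not give the floxed exons. In bulk libraries fewer cells with a transcript and less of it per cell cannot be told apart.

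Markers of the gate were present in both groups. Of 11 genes expected in immature CD8 thymocytes 1 was called lower, the integrin gene Itgae, and their summed level ranged from 9482 to 9958 CPM across the control libraries and from 9375 to 10427 CPM across the dKO libraries. Cd8a measured 1613, 1659 and 1606 CPM in control and 1906, 1769 and 1631 CPM in dKO, and Runx3 193, 192 and 209.9 CPM against 178, 189.6 and 211 CPM. Zbtb7b was at or near 0 in all 6, with 2 counts in the control and 3 in the dKO libraries. Cd4 RNA was low in both groups, 4.71, 3.10 and 1.38 CPM in control and 11.3, 7.91 and 3.75 CPM in dKO, against 1115 CPM in control ImCD4. The 2 groups overlapped for Cd4 and the change did not pass (edgeR adjusted p = 0.0953).

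Across the genome more genes were lower than higher in dKO. At an adjusted p under 0.05 in edgeR's quasi-likelihood test with Benjamini-Hochberg adjustment, 822 of 13383 genes were called (6.14%), 350 higher (2.62%) and 472 lower (3.53%) in dKO. Of these, 231 changed at least 2-fold, 86 upwards and 145 downwards, and at least 4-fold changes numbered 24 and 59. The median log2 fold change was 0.57 among genes called higher, -0.69 among those called lower and 0.01 over all tested genes. Of the 13383 genes 2521 had an unadjusted p under 0.05 in edgeR, and DESeq2 called 976. Such counts for single lists below are to be read against these. The 3 control and the 3 dKO libraries did not overlap for 2919 genes (21.8%), among them 817 of the 822 called. Some changes ended or began near silence: 51 genes called lower averaged under 1 CPM in dKO, and 19 genes called higher averaged under 1 CPM in control. Higher calls were 42.6% of all calls, but 53.3% without dKO replicate 2 and 52.1% without the filter on low counts, where they outnumbered the lower ones. Without control replicate 1, the counts were 159 higher and 314 lower, and 380 of the 822 calls held in each of the 6 fits that left out 1 library. Without replicate 3 of all 4 groups 406 genes were higher and 460 lower, and with a term for those libraries 658 and 762. The gene lists and marker lists were chosen with earlier results of these data known. Their called shares, set beside those of all tested genes, are therefore descriptions only.

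**Figure D1:**
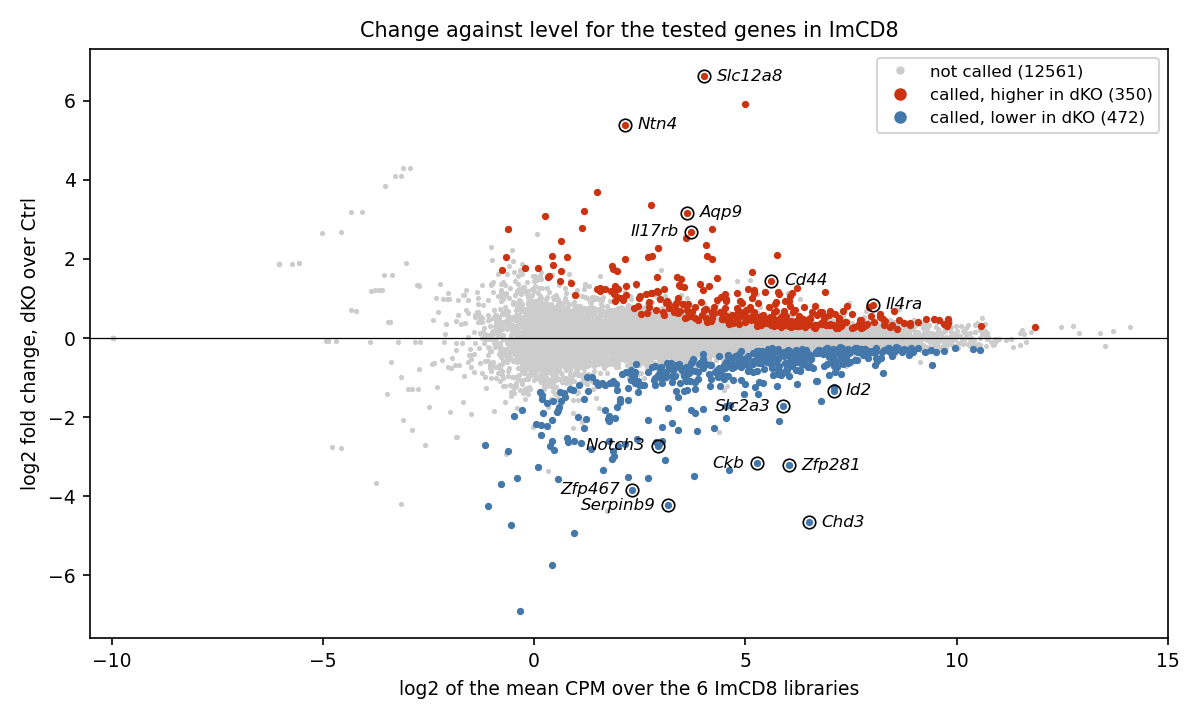
Each point is 1 of 13383 tested genes in ImCD8, with the log2 of its mean CPM over the 6 libraries on the x axis and its log2 fold change, dKO over Ctrl, on the y axis; red and blue points are the 350 genes called higher and the 472 called lower. The labelled Slc12a8 stands at 6.62 and Chd3 at -4.65, far outside the band of uncalled genes at their levels.

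Among 23 tested Kruppel-like and G-rich-binding zinc finger genes 4 were lower and 1 was higher (21.7% called, against 6.14% of all tested genes). The 4 include the targeted pair, whose fall was set by the design. Besides the targeted pair, the falls were of Zfp467 and Zfp219, both of which encode zinc finger proteins outside the targeted loci. Zfp467 (chromosome 6, 48427697 to 48445825, minus strand) measured 11.4, 8.17 and 8.61 CPM in control and 0.381, 1.01 and 0.455 CPM in dKO, a log2 fold change of -3.83 ± 0.30 (SE, edgeR adjusted p = 7.36e-07). Zfp219 measured 34.3, 39 and 32.2 CPM against 20.8, 19.3 and 10.1 CPM and changed by -1.06 ± 0.20 (SE, edgeR adjusted p = 0.00540). In both cases every control library was above every dKO library. Vezf1, which encodes a factor that binds G-rich sequence in endothelial and other cells, rose by 0.33 ± 0.08 (SE, edgeR adjusted p = 0.0149), a call lost without control replicate 1 (adjusted p = 0.0915), without dKO replicate 1 (0.0635) and with only the 6 ImCD8 libraries in the fit (0.0584). The median of the 23 log2 fold changes was -0.07. Other G-rich binders did not pass: Maz measured 169.5, 155 and 175 CPM in control and 192, 188 and 179.9 CPM in dKO, Sp1 59.7, 65.1 and 58.4 CPM against 54.4, 53.1 and 52.5 CPM, and Klf13 545, 627 and 518 CPM against 575, 570.4 and 543 CPM.

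To show what G-rich sequence looks like beside the changed genes, the 9-base motif GGGGAGGGG was searched on both strands in the RefSeq promoter windows of build GRCm38.p6, 250 bases before to 50 bases after a start. It was found anywhere in the window in 6.37% of all 32851 windows, and in at least 1 window of 1945 of 27025 genes. Of the 30 genes with the largest rises and falls 24 had a window, and 2 of these held the motif before a start, Zfp467 and Ntn4. That last count leaves out matches after a start, so it is not the same measure. The motif lay 141 bases before the Zfp467 start and, on the opposite strand, 181 bases before that of Ntn4, a netrin gene described below. Their surrounding bases are printed because they belong to 1 of the largest falls and 1 of the largest rises, with the motif in capitals. In GENCODE both stretches also lie in introns of transcripts that start farther upstream.
Zfp467, chr6:48445198-48445256, minus strand: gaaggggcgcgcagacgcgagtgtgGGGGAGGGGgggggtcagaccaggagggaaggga
Ntn4, chr10:93640843-93640901, plus strand: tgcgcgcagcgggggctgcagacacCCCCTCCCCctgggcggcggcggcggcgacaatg
The match is a description of these letters only, and no binding was measured. The share of promoters with the motif was not compared between called and other genes, because 72.9% of the genes called higher, 73.3% of those called lower and 61.8% of all tested genes had a window, which voids such a check.

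Subunits of the NuRD complex, which couples nucleosome remodelling to histone deacetylation, gave 4 lower and 0 higher calls among 14 tested, where 3.53% and 2.62% of all tested genes were called in those directions. Chd3 (chromosome 11, 69343273 to 69369406, minus strand), 1 of its alternative remodelling ATPases, had 169, 164 and 194 CPM in control and 9.27, 7.54 and 4.21 CPM in dKO. The log2 fold change was -4.65 ± 0.24 (SE, edgeR adjusted p = 5.18e-07), the largest fall among the genes named here, and no dKO library came near a control library. Its paralog Chd4 had 340.1, 361 and 320.01 CPM in control and 338, 289 and 308 CPM in dKO, overlapping groups that did not pass (edgeR adjusted p = 0.402). Mta3, which encodes an MTA scaffold subunit, fell from 82, 83.1 and 93.2 to 40.6, 41.1 and 50.6 CPM, a log2 fold change of -0.97 ± 0.13 (SE, edgeR adjusted p = 0.000235). The other calls were small: the deacetylase gene Hdac2 changed by -0.33 ± 0.08 (SE, edgeR adjusted p = 0.0165) and Gatad2b by -0.29 ± 0.08 (SE, edgeR adjusted p = 0.0458). Hdac2 lost its call without control replicate 2 (adjusted p = 0.0833), without dKO replicate 1 (0.0565), without dKO replicate 3 (0.0712), with only the 6 ImCD8 libraries in the fit (0.0533) and without replicate 3 of all 4 groups (0.0711). Gatad2b lost it without control replicate 1 (adjusted p = 0.132), without control replicate 2 (0.181), without dKO replicate 1 (0.0717), without dKO replicate 2 (0.126), without dKO replicate 3 (0.0992), with RLE size factors (0.0573), with limma-voom (0.0563), without the filter (0.0596) and with only the 6 ImCD8 libraries in the fit (0.0837). The number of lower subunits was 2 without control replicate 2, dKO replicate 1 or dKO replicate 3. The median over the 14 was -0.09.

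Among 35 other chromatin remodelling and DNA methylation genes 4 were lower (11.4%, against 3.53% of all tested genes) and 0 higher. Chd7, which encodes a remodeller active at enhancers, had 118, 104 and 111 CPM in control and 73.8, 75.4 and 84.1 CPM in dKO and fell, with a log2 fold change of -0.52 ± 0.09 (SE, edgeR adjusted p = 0.00157). The Polycomb gene Suz12 went from 180.2, 190.3 and 191 to 141, 155 and 138 CPM, a log2 fold change of -0.37 ± 0.08 (SE, edgeR adjusted p = 0.00681). Neither gene showed overlap between the groups. Smarcc1 and Kdm6b were the other 2 calls and were lost in fits without control replicate 1 (edgeR adjusted p = 0.0562 and 0.154), without control replicate 2 (0.116 and 0.148) and without dKO replicate 3 (0.103 and 0.135). Smarcc1 was also lost without dKO replicate 1 (0.0561), with only the 6 ImCD8 libraries (0.0638) and without replicate 3 of all 4 groups (0.0824), and Kdm6b without dKO replicate 2 (0.107), with limma-voom (0.0547) and with only the 6 ImCD8 libraries (0.0952). Uhrf1, which keeps up DNA methylation, measured 113, 131 and 102 CPM in control and 125, 113 and 111 CPM in dKO and did not pass.

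The largest rise among genes with a standard name was that of Slc12a8 (chromosome 16, 33517328 to 33664135, plus strand), a solute carrier gene. It had 0.224, 0.423 and 0.319 CPM in control and 32.3, 34.4 and 30.4 CPM in dKO, or 8 counts against 895, and changed by 6.62 ± 0.23 (SE, edgeR adjusted p = 5.16e-11). It was silent or nearly so in each control library and lay within a narrow band in dKO. In RefSeq it starts 13.4 kb beyond the end of Zfp148, on the same strand. Of the 11 tested genes within 500 kb of Zfp148 it alone rose, and Fyttd1, 472 kb away, fell, with a log2 fold change of -0.45 ± 0.08 (SE, edgeR adjusted p = 0.00156). The flanking Heg1, on the far side of Slc12a8, measured 88.6, 82.7 and 77.6 CPM against 84.2, 84.1 and 81.1 CPM. Whether transcripts run from the Zfp148 locus into Slc12a8 was not tested, since gene counts do not show junctions. None of the 4 tested genes within 500 kb of Zfp281 was called by edgeR or DESeq2, and 0 had an unadjusted p under 0.05. Within 1000 kb, 2 of 17 tested genes were higher and 1 lower near Zfp148, and 0 of 9 were higher and 2 lower near Zfp281 (Csrp1 and Tmem9). Over all tested genes 2.62% were called higher and 3.53% lower, and these few neighbours are too small a number to compare with those shares. All these distances are between RefSeq gene bodies.

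Other genes rose from low levels. Ntn4 (chromosome 10, 93640681 to 93747207, plus strand), which encodes a secreted laminin-related netrin, had 0.112, 0.141 and 0.319 CPM in control and 10.2, 11.4 and 4.66 CPM in dKO, 5 counts against 245, and changed by 5.39 ± 0.48 (SE, edgeR adjusted p = 4.21e-06). Cd163l1, a scavenger receptor gene used as a mark of gamma-delta T cells, went from 0, 0.423 and 0.744 to 4.19, 4.60 and 6.94 CPM, and Ly6c1 from 0.784, 0.141 and 0.319 to 4.45, 3.13 and 4.89 CPM. For all 3 genes each dKO library exceeded each control library, by 3.69 ± 0.51 for Cd163l1 and 3.22 ± 0.45 for Ly6c1 on the log2 scale (edgeR adjusted p = 0.000253 and 0.000297). Aqp9, a channel for water and glycerol, rose from 2.69, 2.54 and 2.23 to 22, 25.9 and 19 CPM (log2 fold change 3.17 ± 0.16 SE, edgeR adjusted p = 5.21e-09). The Fc receptor gene Fcgrt rose from 5.60, 5.63 and 8.29 to 19.4, 19.9 and 43.8 CPM, and Cyp2s1, a cytochrome P450 gene, from 1.79, 2.68 and 3.30 to 11.7, 7.45 and 18.6 CPM. dKO replicate 3 was the lowest of its group for Ntn4 and Aqp9 and the highest for Fcgrt and Cyp2s1, so the rises did not share 1 leading library.

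**Figure D2:**
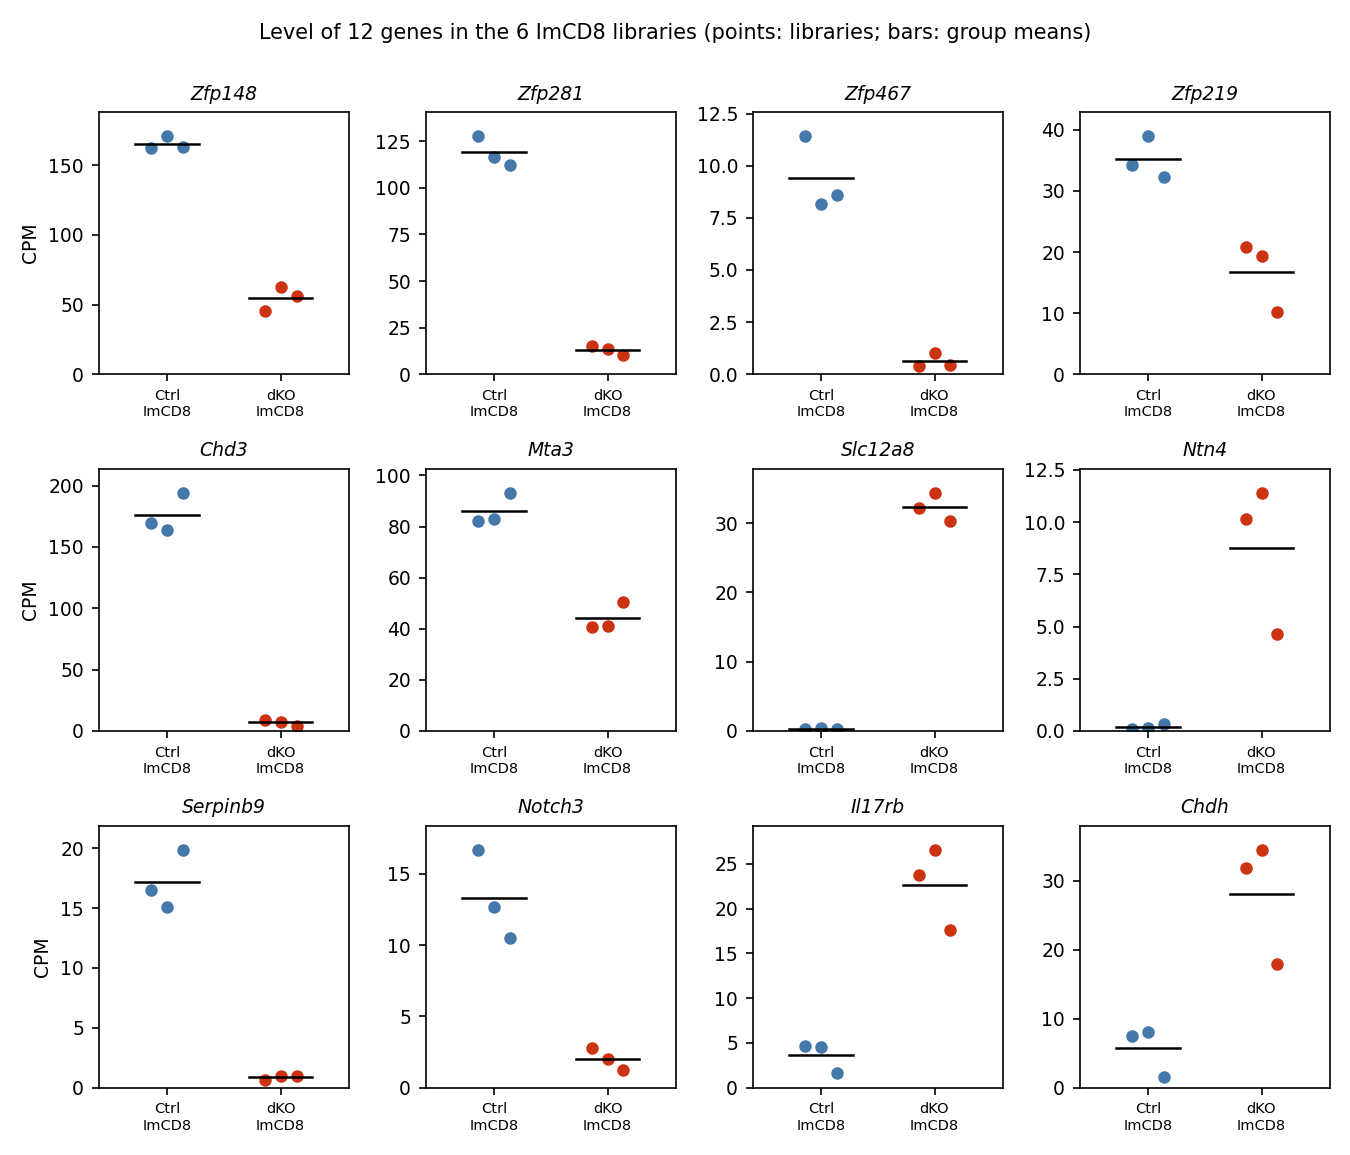
Levels of 12 genes in CPM (y axes from 0) in the 3 Ctrl and 3 dKO ImCD8 libraries; points are libraries in the order of replicates 1 to 3 and bars are group means. In no panel do the 2 groups overlap, as was the case for 817 of the 822 called genes and for 2919 of 13383 tested genes (21.8%). For genes named as largest rises or falls, no overlap was a condition of the choice.

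Il17rb and Chdh rose together. Il17rb (chromosome 14, 29996135 to 30008896, minus strand) encodes the receptor for IL-25, a cytokine of type 2 immunity, and Chdh (chromosome 14, 30009023 to 30040527, plus strand) a choline dehydrogenase. The genes point away from each other, with RefSeq starts at 30008896 and 30009000. Il17rb had 4.71, 4.51 and 1.59 CPM in control and 23.8, 26.6 and 17.6 CPM in dKO, and Chdh 7.51, 8.03 and 1.59 CPM against 31.9, 34.5 and 18 CPM. For both, replicate 3 was the lowest library of each group. The log2 fold changes were 2.69 ± 0.26 (SE, edgeR adjusted p = 3.48e-05) and 2.35 ± 0.42 (SE, edgeR adjusted p = 0.00923), and the Chdh call was lost with only the 6 ImCD8 libraries in the fit (adjusted p = 0.0573). Control ImCD4 cells had 68.9, 80.3 and 65.9 CPM of Il17rb and 166, 172 and 137 CPM of Chdh, above all dKO ImCD8 libraries. The 103 bases between the starts, which lie before both genes, are printed as the sequence that the pair shares. They hold no GGGGAGGGG on either strand.
Between Il17rb and Chdh, chr14:30008897-30008999, plus strand: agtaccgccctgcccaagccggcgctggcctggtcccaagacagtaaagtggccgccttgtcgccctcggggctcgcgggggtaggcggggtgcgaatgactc
Of 477 pairs of tested genes with overlapping RefSeq promoter windows on opposite strands, 28 had a called member. Among all tested genes, taken singly, 6.14% were called. In 3 of the 28 pairs both members were called, each pair in 1 direction, and in the rest only 1 member was. The other 2 pairs with both members called were chosen after their values were seen. Tmem176a and Tmem176b were both higher (log2 fold changes 1.55 ± 0.23 and 1.54 ± 0.20), and Tmie and Als2cl were both lower (-1.15 ± 0.10 and -0.36 ± 0.08). Without strand information in the counting, reads of overlapping starts cannot be assigned with certainty.

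Several genes of the cytotoxic program fell, while Cd8a and Runx3 did not pass. Of 25 tested CD8-lineage and cytotoxic genes 7 were lower and 1 was higher, against 3.53% and 2.62% of all tested genes, and their median log2 fold change was -0.18. Serpinb9 (chromosome 13, 33003250 to 33017957, plus strand), which encodes the inhibitor that shields cytotoxic cells from their own granzyme B, had 16.5, 15.1 and 19.9 CPM in control and 0.635, 1.01 and 1.02 CPM in dKO. The log2 fold change was -4.23 ± 0.22 (SE, edgeR adjusted p = 5.69e-09), and the dKO libraries held 25 counts against 441. The perforin gene Prf1 had 37, 37.9 and 61 CPM in control and 16.3, 13.3 and 21.8 CPM in dKO (log2 fold change -1.41 ± 0.27 SE, edgeR adjusted p = 0.00792), and the cathepsin gene Ctsw 516, 556 and 563 CPM against 386, 379.6 and 441 CPM (log2 fold change -0.44 ± 0.08 SE, edgeR adjusted p = 0.00378). No dKO library reached the lowest control library of these 3 genes. The chemokine gene Ccl5 had 30.1, 22.5 and 79.95 CPM in control and 6.99, 2.85 and 3.64 CPM in dKO (log2 fold change -3.34 ± 0.50 SE, edgeR adjusted p = 0.00299), and the granzyme gene Gzmb 7.51, 3.38 and 16.8 CPM against 2.03, 1.29 and 1.48 CPM (log2 fold change -2.56 ± 0.50 SE, edgeR adjusted p = 0.00772). Control replicate 3 was the highest library for Prf1, Ccl5 and Gzmb, yet the calls of all 3 held in each fit that left out 1 ImCD8 library. The Gzmb call was lost with only the 6 ImCD8 libraries in the fit (adjusted p = 0.0545).

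Cathepsin C, encoded by Ctsc and needed to activate granzymes, changed by -0.40 ± 0.11 (SE, edgeR adjusted p = 0.0423), but its call was lost without control replicate 1 (adjusted p = 0.0794), without control replicate 2 (0.0613), without control replicate 3 (0.155), without dKO replicate 1 (0.144), without dKO replicate 2 (0.136) and with only the 6 ImCD8 libraries in the fit (0.0612). Itgae, the CD103 integrin subunit, changed by -0.34 ± 0.08 (SE, edgeR adjusted p = 0.0177) and was lost without control replicate 1 (adjusted p = 0.0625), without control replicate 3 (0.0505) and without dKO replicate 1 (0.0782). Nkg7, a granule gene, had 625, 666 and 755 CPM in control and 384, 352 and 609.9 CPM in dKO and did not pass (edgeR adjusted p = 0.149). Eomes, the factor gene of effector and memory CD8 cells, had 4.59, 3.38 and 11 CPM against 3.94, 2.85 and 4.09 CPM, and Tbx21 2.13, 2.11 and 4.68 CPM against 2.41, 2.30 and 4.78 CPM, overlapping in both cases. The 1 gene that rose was the lysosomal protease gene Ctsd, from 215, 245 and 236 to 377, 346 and 342 CPM (log2 fold change 0.61 ± 0.07 SE, edgeR adjusted p = 8.58e-05). Markers of NK cells, another source of cytotoxic genes, summed to between 9.01 and 18.2 CPM in the control libraries and between 8.87 and 11.1 CPM in the dKO libraries, with Ncr1 and Khdc1a at 0 in all 6 libraries. Of 9 tested NK receptor genes 0 were called by edgeR and 1 by DESeq2, with 2 at an unadjusted p under 0.05.

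Called genes of the CD4 and helper program mostly rose. Of 16 tested members 5 were higher and 1 was lower (37.5% called, against 6.14% of all tested genes). Their median log2 fold change was 0.35. Ccr8, a chemokine receptor gene of maturing CD4 and of type 2 helper cells, had 14.9, 30.7 and 17 CPM in control and 76.5, 112 and 72 CPM in dKO. It rose by 2.09 ± 0.27 (SE, edgeR adjusted p = 0.00129), with no overlap, and its call was lost without replicate 3 of all 4 groups (adjusted p = 0.0588). Il4ra, the alpha chain of the receptor for IL-4 and IL-13, went from 176, 181 and 198 to 316, 356 and 324 CPM (log2 fold change 0.84 ± 0.07 SE, edgeR adjusted p = 3.09e-06). Gata3, the factor of CD4 commitment and of type 2 cells, had 50.8, 57 and 46.2 CPM in control and 73.8, 77.7 and 62.4 CPM in dKO (log2 fold change 0.48 ± 0.10 SE, edgeR adjusted p = 0.00632). The dKO libraries of these 3 genes lay above all control libraries. Cd40lg, the helper ligand gene, rose from 3.14, 5.07 and 3.19 to 8.51, 7.91 and 6.03 CPM (log2 fold change 1.01 ± 0.19 SE, edgeR adjusted p = 0.00421), a call lost with only the 6 ImCD8 libraries in the fit (adjusted p = 0.0555). Levels in dKO ImCD8 stayed below those of control ImCD4 for Ccr8 (117, 121 and 149 CPM there), Gata3 (363, 362 and 389 CPM) and Cd40lg (244, 291 and 296 CPM), and exceeded them for Il4ra (234, 223 and 228 CPM). The costimulatory receptor gene Icos went against the others and fell from 113, 115 and 107 to 82.7, 79.3 and 70.4 CPM (log2 fold change -0.53 ± 0.08 SE, edgeR adjusted p = 0.000578). Tox measured 241, 225 and 189 CPM against 238, 262 and 168 CPM and did not pass.

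**Figure D3:**
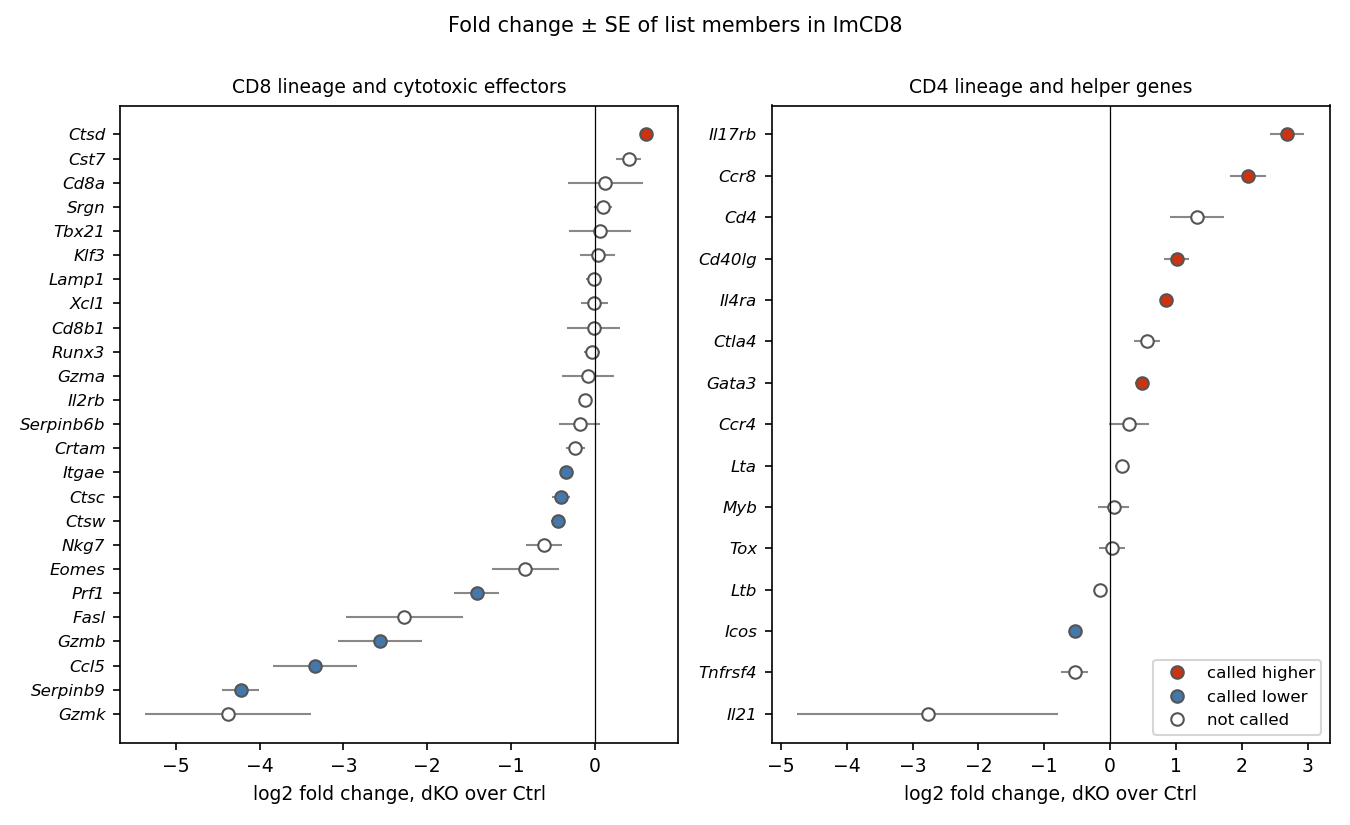
Log2 fold change with its SE (x axis) for each tested member of the CD8-lineage and cytotoxic list and of the CD4-lineage and helper list, with Zbtb7b left out because it is at the floor; filled points passed the threshold. On the left 7 blue points lie below 0, down to Serpinb9, and on the right 5 red points lie above 0, up to Il17rb.

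The Id genes moved in opposite directions. Id proteins lack a DNA-binding region and hold E proteins such as E2A (Tcf3) and HEB (Tcf12) away from DNA. Id2 had 206, 151 and 228 CPM in control and 80.8, 65.8 and 86.3 CPM in dKO, and Id3 236, 271 and 263 CPM against 406, 327 and 341 CPM. Neither gene showed overlap: Id2 changed by -1.33 ± 0.15 (SE, edgeR adjusted p = 9.11e-05) and Id3 by 0.48 ± 0.09 (SE, edgeR adjusted p = 0.00543). The E protein genes did not pass, Tcf3 with 331, 384 and 333 CPM against 297, 313 and 242 CPM and Tcf12 with 119, 125 and 111 CPM against 126, 137 and 127 CPM. In control ImCD4 cells Id2 stood at 683, 643 and 764 CPM, above all ImCD8 libraries.

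Of 51 thymocyte transcription factor genes Gata3 was higher and Runx1 lower, and 49 did not pass, a called share of 3.92% against 6.14% of all tested genes. Runx1 had 47.8, 44.9 and 41.7 CPM against 38, 36.6 and 33.3 CPM (log2 fold change -0.32 ± 0.08 SE, edgeR adjusted p = 0.0336) and lost its call without control replicate 1 (adjusted p = 0.155), without control replicate 2 (0.0841), without dKO replicate 2 (0.0626), without dKO replicate 3 (0.127), with limma-voom (0.0687), with only the 6 ImCD8 libraries in the fit (0.103) and without replicate 3 of all 4 groups (0.0593). Tcf7 had 1725, 1856 and 1565 CPM in control and 1926, 1840.2 and 1454 CPM in dKO, and Bcl11b 794, 837 and 616 CPM against 808, 904 and 615 CPM, with overlap in both. Outside that list Tcf7l2, a Wnt pathway factor gene, fell from 8.52, 4.93 and 6.49 to 0.889, 0.920 and 0.682 CPM (log2 fold change -2.99 ± 0.30 SE, edgeR adjusted p = 1.33e-05), so that each dKO library was under 1 CPM.

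Of 13 Notch pathway genes Notch3 alone was called (7.69%, against 6.14% of all tested genes). It encodes a Notch receptor expressed at early thymocyte stages and had 16.7, 12.7 and 10.5 CPM in control and 2.79, 2.02 and 1.25 CPM in dKO. The highest dKO library was far under the lowest control library, and the log2 fold change was -2.72 ± 0.28 (SE, edgeR adjusted p = 1.66e-05). Notch1 (211, 209 and 204 CPM against 207, 172 and 216 CPM) and Dtx1 (220.1, 267 and 259 CPM against 168, 146 and 297 CPM) did not pass.

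Cytokine receptor genes changed in both directions. Among 8 genes of the common gamma chain family Il4ra was higher and Il2rg, the shared gamma chain itself, was lower. These were 2 calls among 8, where 6.14% of all tested genes were called. Il2rg had 553, 585 and 537 CPM in control and 476, 451 and 402 CPM in dKO (log2 fold change -0.33 ± 0.07 SE, edgeR adjusted p = 0.00970), while Il7r had 141, 117 and 144 CPM against 103, 109 and 145 CPM and Il2rb 448, 447 and 491 CPM against 444, 404 and 429 CPM. Il7r overlapped between the groups, Il2rb was slightly lower in each dKO library, and neither passed. Of 17 other cytokine receptor genes 4 were higher, Il17rb, Il6ra, Il18r1 and Il12rb2, and 1 was lower, Il10ra. The share called was 29.4%, against the same 6.14%. Only Il17rb held in every fit that left out 1 library. Without control replicate 1 or 2 the count of higher members was 1, and without any 1 of the dKO libraries it was 2. Il6ra had 16.8, 18.3 and 30.9 CPM in control and 43.9, 40.6 and 70.04 CPM in dKO and was lost without control replicate 1 (adjusted p = 0.0968), without control replicate 2 (0.103), without dKO replicate 3 (0.0598), without the filter (0.0766) and with only the 6 ImCD8 libraries in the fit (0.0729). Of 19 Jak, Stat and Socs genes and of 21 TGF-beta pathway genes 0 were called by edgeR and 2 of each by DESeq2, with 5 and 6 at an unadjusted p under 0.05. Socs3 came to 43.3, 35.5 and 43.8 CPM in control and 55.5, 46.7 and 69.9 CPM in dKO (edgeR adjusted p = 0.0767).

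Receptors that guide migration rose where they were called. Of 10 chemokine receptor genes 3 were higher, Ccr8, Cx3cr1 and Cxcr5 (30.0%, against 2.62% of all tested genes). Of these, Ccr8 alone was left without control replicate 1. Cx3cr1 had 3.47, 6.62 and 4.15 CPM in control and 10.3, 11 and 10.01 CPM in dKO (log2 fold change 1.16 ± 0.26 SE, edgeR adjusted p = 0.0127), a call lost without control replicate 1 (adjusted p = 0.0794) and without control replicate 3 (0.0542). Ccr7 (821, 937 and 967 CPM against 755, 761 and 813 CPM) and Ccr9 (869.9, 766 and 817 CPM against 831, 828 and 745 CPM), the receptors that place cells within the thymus, did not pass. Of 15 egress and migration genes 2 were higher (13.3%, against 2.62% of all tested genes). Cd44, the hyaluronan receptor of activated and memory cells whose protein the sort held low, had 26, 23.8 and 28.7 CPM in control and 85, 72.2 and 58.8 CPM in dKO (log2 fold change 1.45 ± 0.15 SE, edgeR adjusted p = 2.36e-05). Gpr183, an oxysterol receptor that steers cells to zone borders in lymphoid organs, had 21.1, 24.4 and 23.5 CPM against 56.6, 53.3 and 42.8 CPM (log2 fold change 1.15 ± 0.12 SE, edgeR adjusted p = 2.89e-05). Both were higher in each dKO library than in any control library. The egress receptor gene S1pr1 had 150.04, 166 and 293 CPM against 217, 225 and 399 CPM and Klf2, its activator, 480.5, 507 and 619 CPM against 623, 542 and 748 CPM; replicate 3 was the highest of each group and neither gene passed. Without replicate 3 of all 4 groups the number of higher members was 5.

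Integrin genes fell where they were called, 3 of 12, with 0 higher, where 3.53% and 2.62% of all tested genes were called in those directions. The number of lower members was 2 without control replicate 1, control replicate 3 or dKO replicate 1, and 4 without dKO replicate 2. Itgb3 and Itgav encode the 2 chains of the vitronectin receptor. Itgb3 had 79.1, 75.9 and 79.1 CPM in control and 43.8, 42.3 and 42.4 CPM in dKO (log2 fold change -0.87 ± 0.09 SE, edgeR adjusted p = 1.12e-05), and Itgav 42.7, 36.8 and 39.8 CPM against 23.4, 25.8 and 26 CPM (log2 fold change -0.66 ± 0.11 SE, edgeR adjusted p = 0.00143). Neither overlapped between the groups, and Itgae was the third, with the limits given above.

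Of 15 T cell receptor chain, coreceptor and adhesion genes Cd247 and Thy1 were lower and 13 did not pass, a called share of 13.3% against 6.14% of all tested genes. DESeq2 called 6 of the 15, and 7 had an unadjusted p under 0.05 in edgeR. Cd247, the zeta chain gene, had 323, 355 and 335 CPM in control and 274, 275 and 245 CPM in dKO (log2 fold change -0.35 ± 0.08 SE, edgeR adjusted p = 0.00957), without overlap, whereas Trac (1169.8, 1259 and 1122 CPM against 1227, 1149 and 1063 CPM) and Cd3e (1228, 864 and 875 CPM against 1302, 1267 and 1097 CPM) overlapped. Thy1 was lost without control replicate 1 (adjusted p = 0.128), without control replicate 2 (0.129), without control replicate 3 (0.0567), without dKO replicate 1 (0.0865) and without dKO replicate 2 (0.126). Of 32 genes induced by receptor signals Nfkbid, Irf8 and Ier2 were higher (9.38%, against 2.62% of all tested genes). That count was 0 without control replicate 1 or 3, and 1 without dKO replicate 1 or 2. The early factor genes Nr4a1 (258, 310.02 and 222 CPM against 249, 299 and 149 CPM) and Egr1 (443, 439 and 418 CPM against 541, 515 and 352 CPM) did not pass.

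Of 12 MAP kinase feedback genes 3 were higher and 1 lower (33.3% called, against 6.14% of all tested genes). Dusp7, a phosphatase gene acting on ERK, had 79, 81.7 and 95 CPM in control and 123, 124 and 155 CPM in dKO (log2 fold change 0.65 ± 0.09 SE, edgeR adjusted p = 0.000304). Dusp1, which acts on p38 and JNK, went the other way, from 34, 36.2 and 34.1 to 23, 23.8 and 21.6 CPM (log2 fold change -0.60 ± 0.12 SE, edgeR adjusted p = 0.00522). Both kept the groups apart. Dusp10 (0.34 ± 0.08) and Dusp2 (0.49 ± 0.13) were the other 2 higher members. Without control replicate 1 or 3 or dKO replicate 3 the number of higher members was 1.

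Genes better known from neurons and endocrine cells had the largest called share of the 38 lists, 60.0% against 6.14% of all tested genes. Of 20 tested members 9 were lower and 3 higher, with a median log2 fold change of -0.23; the list was drawn up with earlier results of these data known, so its size is a description. Ckb, the brain-type creatine kinase gene, had 85.1, 74.8 and 48.8 CPM in control and 9.27, 8.10 and 5.91 CPM in dKO (log2 fold change -3.16 ± 0.30 SE, edgeR adjusted p = 0.000129). Ddc, the decarboxylase gene of dopamine and serotonin synthesis, had 24.8, 27.3 and 24.6 CPM against 2.03, 3.04 and 1.59 CPM (log2 fold change -3.49 ± 0.26 SE, edgeR adjusted p = 4.32e-07), and Syt11, a synaptotagmin gene of vesicle traffic, 36.4, 39.2 and 37.1 CPM against 10.03, 7.82 and 10.01 CPM (log2 fold change -2.02 ± 0.13 SE, edgeR adjusted p = 1.18e-07). Each of these 3 kept a wide gap between the groups. Ptprn, a receptor-like phosphatase gene of secretory granules, went from 9.75, 8.87 and 7.02 to 1.27, 0.552 and 0.455 CPM, Rundc3a from 13.9, 9.58 and 12.2 to 1.02, 1.29 and 0.682 CPM, and the active zone gene Rims3 from 25.1, 26.5 and 22.4 to 9.65, 7.18 and 4.66 CPM. The calls of all 6 held whichever ImCD8 library was left out, and the log2 fold changes of the last 3 were -3.52 ± 0.30, -3.54 ± 0.27 and -1.79 ± 0.20. Pcsk1, a prohormone convertase gene, moved the other way, from 2.91, 3.52 and 4.15 to 28.8, 18.2 and 14.8 CPM (log2 fold change 2.53 ± 0.43 SE, edgeR adjusted p = 0.00412). Tubb3 and Kcnh3 were also higher, but without control replicate 1 Pcsk1 was the 1 higher member left.

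**Figure D4:**
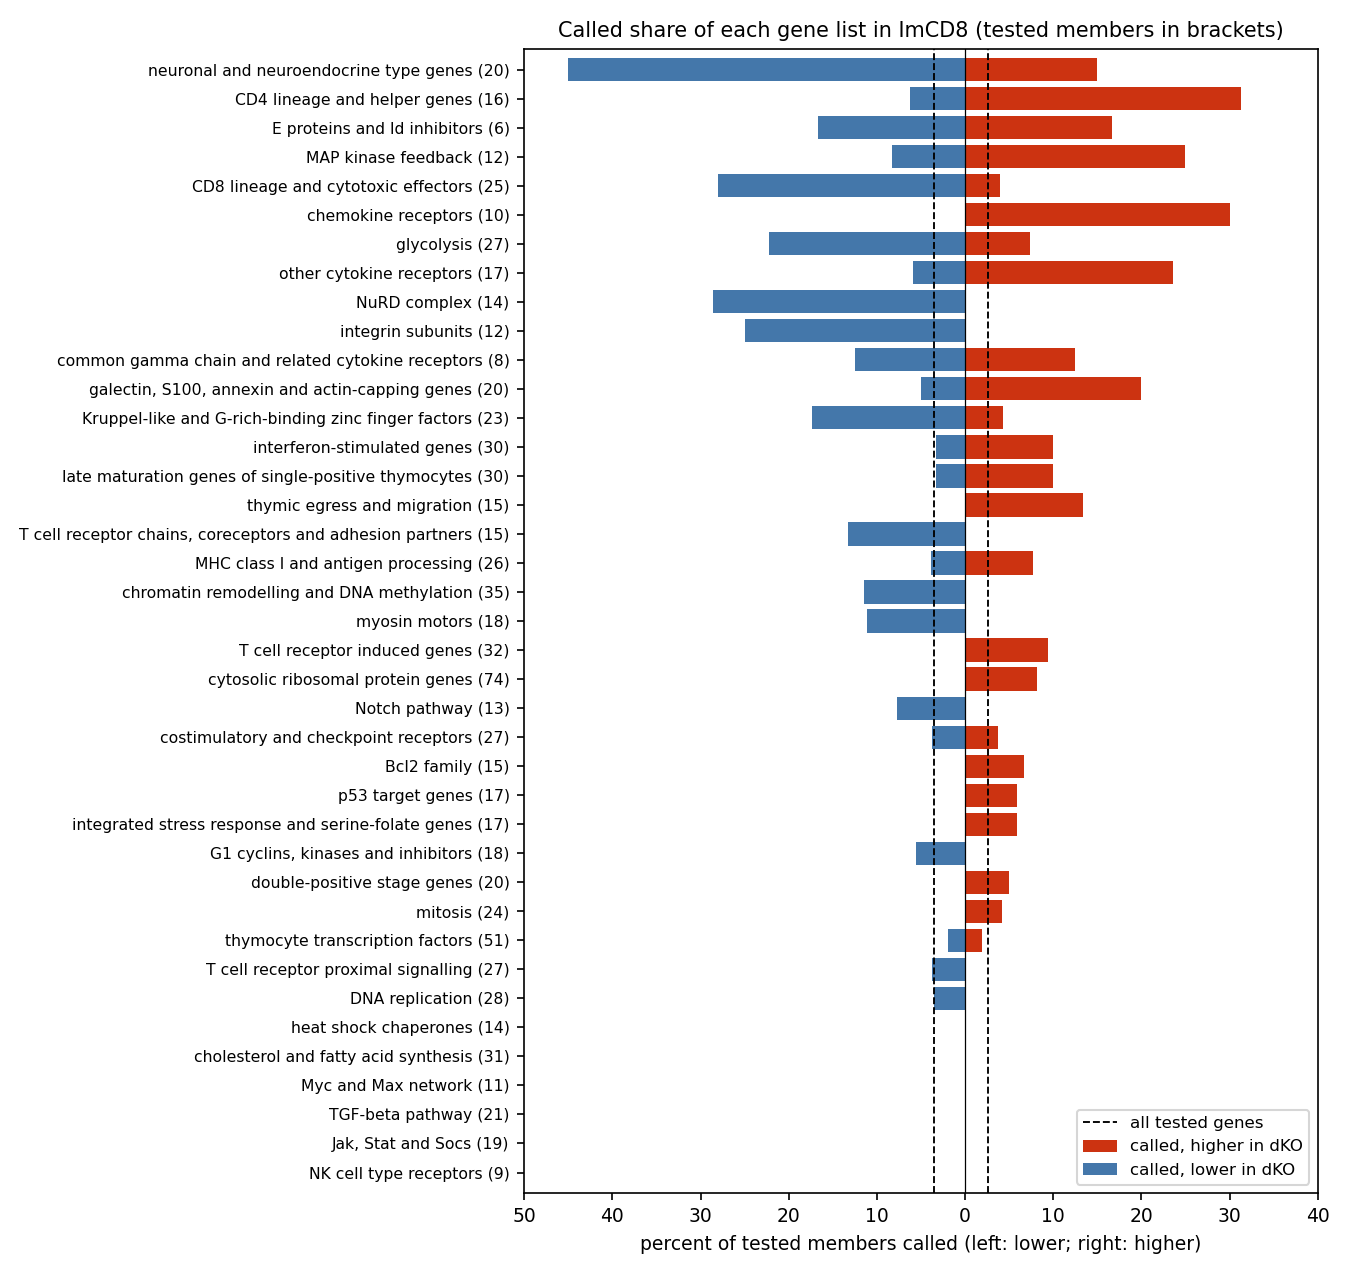
Share of the tested members of each gene list called lower (blue, to the left) or higher (red, to the right) in dKO ImCD8, in percent, with the number of tested members in brackets and dashed lines at the shares over all tested genes, 3.53% and 2.62%. The neuronal and neuroendocrine list has the longest bar in all and 6 lists have none. The Kruppel-like and G-rich-binding list counts the targeted pair among its lower members.

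Glycolysis genes split. Of 27 tested 6 were lower and 2 higher (29.6% called, against 6.14% of all tested genes), and the median was -0.03. Slc2a3, the glucose transporter GLUT3 gene (chromosome 6, 122727809 to 122801640, minus strand), had 88.3, 96.8 and 90.3 CPM in control and 25.1, 30.7 and 26.9 CPM in dKO (log2 fold change -1.73 ± 0.09 SE, edgeR adjusted p = 5.64e-09). The transporter gene Slc2a1 had 35.9, 45.6 and 43.1 CPM against 51.3, 55.9 and 50.3 CPM, higher in each dKO library, but did not pass (edgeR adjusted p = 0.0994). Pkm, for the last enzyme of the pathway, went from 801, 901 and 837 to 582, 552 and 443 CPM (log2 fold change -0.69 ± 0.09 SE, edgeR adjusted p = 0.000136), and the phosphofructokinase gene Pfkm from 20.6, 19.2 and 17.6 to 9.02, 9.84 and 7.62 CPM (log2 fold change -1.11 ± 0.14 SE, edgeR adjusted p = 0.000109). The groups stayed apart for these genes. Eno2 and Eno3, for the neuronal and muscle enolases, fell, with log2 fold changes of -1.99 ± 0.28 and -1.03 ± 0.15. Aldoa, the main aldolase gene of lymphocytes, rose from 255, 284 and 266 to 397, 346 and 339 CPM (log2 fold change 0.43 ± 0.07 SE, edgeR adjusted p = 0.00201). Eno1 also rose (0.31 ± 0.07), but without control replicate 1 or dKO replicate 1 Aldoa was the 1 higher member left. Ldha had 1040.5, 1174 and 1138 CPM against 1234, 1187 and 1242 CPM and did not pass.

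Cell cycle genes were called at shares of 3.57% to 5.56% per list, against 6.14% of all tested genes. Of 18 genes of G1 control the 1 called was Cdk2, the kinase gene of S phase entry, with 68.7, 70.1 and 66.7 CPM in control and 41, 43.3 and 41.7 CPM in dKO (log2 fold change -0.70 ± 0.08 SE, edgeR adjusted p = 2.89e-05). Of 24 mitosis genes Kif23, a kinesin gene of cytokinesis, was the 1 called and rose from 57.5, 56.3 and 51.2 to 89, 95.6 and 87 CPM (log2 fold change 0.72 ± 0.07 SE, edgeR adjusted p = 1.11e-05), although 22 of the 24 had a log2 fold change below 0 and their median was -0.48. Replicate 3 was the lowest of each group for Mki67, with 76.1, 71.3 and 29.98 CPM in control and 51.9, 50.5 and 32.6 CPM in dKO, and for Ccnb1, with 15.7, 20.4 and 5.42 CPM against 10.03, 13.2 and 4.43 CPM. The median of the mitosis list ran from -0.84 without control replicate 3 to -0.23 without control replicate 2 or dKO replicate 3. Without replicate 3 of all 4 groups it was -0.60 and 11 members were lower. Without control replicate 3 alone 2 were lower. Of 28 replication genes Mcm3 was lower and the median was -0.20, and the Mcm3 call was lost without control replicate 1 (adjusted p = 0.0568), without control replicate 2 (0.138), without control replicate 3 (0.0701), without dKO replicate 1 (0.0705), without dKO replicate 2 (0.124) and with only the 6 ImCD8 libraries in the fit (0.0514).

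Among genes that follow later maturation, 3 of 30 were higher and 1 lower (13.3% called, against 6.14% of all tested genes). Besides Ly6c1, Slfn1 rose from 179, 165 and 197 to 259, 241 and 241 CPM (log2 fold change 0.45 ± 0.09 SE, edgeR adjusted p = 0.00753), without overlap. Slfn2, also higher, and Gimap9, the lower member, were the others, and both lost their calls without single libraries. Slfn2 lost it without control replicate 1 (adjusted p = 0.156), without control replicate 2 (0.108), without control replicate 3 (0.0740), without dKO replicate 1 (0.0977), without dKO replicate 2 (0.110) and with library size only (0.0629). Gimap9 lost it without control replicate 1 (adjusted p = 0.0562), without control replicate 3 (0.0676), without dKO replicate 2 (0.0553) and without replicate 3 of all 4 groups (0.0552). Without replicate 3 of all 4 groups 6 were higher. Of 20 double-positive stage genes Dntt, which encodes the terminal transferase that adds bases at receptor gene joints, was the 1 called, with 50.8, 47.5 and 34 CPM in control and 119.5, 106 and 91 CPM in dKO (log2 fold change 1.26 ± 0.15 SE, edgeR adjusted p = 0.000204). This was 5.0% of the list, against 6.14% of all tested genes. The count was 3 without dKO replicate 3 and 4 without replicate 3 of all 4 groups. Rag1 stayed low in all 6 libraries, 5.83, 3.38 and 1.70 CPM against 5.46, 4.97 and 0.341 CPM. The summed level of 10 double-positive markers lay between 131.9 and 169 CPM in the control and between 192 and 239.8 CPM in the dKO libraries. Dntt is part of that sum and was the 1 called of 9 tested markers. The sum therefore does not show a rise of the other markers. The part of double-positive cells in other changes was not tested. Bbc3, the gene of the death protein PUMA in negative selection and the p53 response, rose from 20.4, 21 and 25.3 to 35.4, 32 and 31.5 CPM (log2 fold change 0.56 ± 0.11 SE, edgeR adjusted p = 0.00414), and was the 1 called of 15 Bcl2 family genes and of 17 p53 target genes. The shares of these 2 lists were 6.67% and 5.88%, against 6.14% of all tested genes. The Bcl2 family count was 2 without dKO replicate 3. Bcl2 (360.5, 334 and 337 CPM against 303, 356 and 412 CPM) and Bcl2l11 (133, 129 and 90.3 CPM against 111, 113 and 75.5 CPM), for a survival and a death protein, did not pass.

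Interferon-stimulated genes gave 3 higher and 1 lower of 30, where 2.62% and 3.53% of all tested genes were called. Irf7, the factor of the interferon response, had 172, 160.4 and 198 CPM in control and 254, 224 and 254 CPM in dKO (log2 fold change 0.46 ± 0.08 SE, edgeR adjusted p = 0.00269), and Oasl1 22.7, 20.4 and 23.5 CPM against 37.6, 32.5 and 37.3 CPM (log2 fold change 0.68 ± 0.12 SE, edgeR adjusted p = 0.00156). Ifi44 rose from 5.15, 4.37 and 4.36 to 13, 10.9 and 7.73 CPM (edgeR adjusted p = 0.00555). All 3 kept the groups apart, and the median of the list was 0.07. Ifi27, the lower member, lost its call without control replicate 1 (adjusted p = 0.0611), without control replicate 2 (0.0685) and without dKO replicate 2 (0.0645). Of 26 MHC class I and antigen processing genes 2 were higher, H2-T24 and B2m, and H2-M3 was lower. This was 11.5% of the list, against 6.14% of all tested genes. B2m changed by 0.29 ± 0.08 (SE, edgeR adjusted p = 0.0383), a call lost without control replicate 1 (adjusted p = 0.110), without control replicate 2 (0.101), without control replicate 3 (0.0961), without dKO replicate 1 (0.149), without dKO replicate 3 (0.0795), with only the 6 ImCD8 libraries in the fit (0.126) and without replicate 3 of all 4 groups (0.0872). H2-M3 changed by -0.42 ± 0.10 (SE, edgeR adjusted p = 0.0152), a call lost without control replicate 3 (adjusted p = 0.0518) and without dKO replicate 1 (0.0690). H2-T24 was higher in every fit that left out 1 library, with 51.5, 49.4 and 50.6 CPM in control and 74.4, 72.3 and 76.4 CPM in dKO (log2 fold change 0.56 ± 0.08 SE, edgeR adjusted p = 0.000278), and the classical gene H2-K1 (2641, 2616 and 3019 CPM against 2870.4, 2772 and 3384 CPM) did not pass.

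Galectin, S100, annexin and actin-capping genes gave 4 higher and 1 lower of 20, where 2.62% and 3.53% of all tested genes were called. Without control replicate 1 the number higher was 1. Lgals3, Lgals9 and S100a11 lost their calls in that fit (edgeR adjusted p = 0.0952, 0.0708 and 0.0585), and Lgals3 in several others. Anxa6, the lower member, lost its call without control replicate 2 (0.051). Lgals1, the galectin-1 gene, had 164, 184 and 187 CPM in control and 312, 238 and 378 CPM in dKO (log2 fold change 0.79 ± 0.15 SE, edgeR adjusted p = 0.00639), with no overlap. Mthfd2, of mitochondrial folate metabolism, was the 1 called of 17 stress and serine-folate genes (5.88%, against 6.14% of all tested genes). It rose from 29.5, 29.2 and 27.1 to 45.7, 39.9 and 49.7 CPM (log2 fold change 0.66 ± 0.10 SE, edgeR adjusted p = 0.000923). Of 31 cholesterol and fatty acid synthesis genes, 14 heat shock chaperone genes and 11 Myc network genes 0 were called by edgeR or DESeq2, with 4, 1 and 2 at an unadjusted p under 0.05. Myc had 188, 211 and 259 CPM against 220.5, 219 and 341 CPM.

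Ribosomal protein genes, a list added after their values were seen, were mostly higher, but the number called depended on single libraries. Of 74 tested genes 73 had a log2 fold change above 0 with a median of 0.34. Yet 6 were called, all higher, 8.11% against 2.62% of all tested genes. Rps19 had 692, 774 and 767 CPM in control and 1160.0, 840.1 and 1122 CPM in dKO, with dKO replicate 2 close to control and dKO replicates 1 and 3 well above. These genes have near-identical pseudogenes, so their counts are uncertain. Without dKO replicate 2 the count was 69. It was 2 without control replicate 2, 1 without control replicate 3, and 0 without control replicate 1, dKO replicate 1 or dKO replicate 3. Reads with more than 1 alignment made up 5.39% and 4.99% in dKO replicates 1 and 3, 4.47% in dKO replicate 2 and 4.61% to 4.76% in control, and their part in this was not tested.

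Of 62 tested markers in 10 lists for other cell types or stages, edgeR called 8 (12.9%, against 6.14% of all tested genes) and DESeq2 11. B cell markers summed to between 315 and 408 CPM in the control libraries and between 369.7 and 503 CPM in the dKO libraries, with 8 of 14 under 1 CPM in all 6 libraries, and 1 of 4 tested was higher. That gene, Cd79b, had 8.18, 11.7 and 10.5 CPM in control and 21.8, 20.1 and 34 CPM in dKO. Markers of gamma-delta T cells summed to between 26.9 and 27.96 CPM in the control libraries and between 36.8 and 45.5 CPM in the dKO libraries, with 1 of 9 tested called, Cd163l1. Myeloid and dendritic markers summed to 155 to 177 and 144 to 209.6 CPM, erythroid and platelet markers to 43.4 to 50.4 and 50.4 to 85.5 CPM, and stromal and endothelial markers to 145 to 165 and 129.7 to 160.3 CPM, with 0 of their tested members called by edgeR. DESeq2 called 1 erythroid or platelet marker and none of the others, and 1 erythroid or platelet marker had an unadjusted p under 0.05. Slc4a1, Pf4, Ppbp and Pdgfra were at 0. Thymic epithelial markers summed to 105 to 109 and 119.5 to 134 CPM, and Epcam, 1 of 4 tested, rose by 0.85 ± 0.21 (SE, edgeR adjusted p = 0.0196), a call lost without control replicate 1 (adjusted p = 0.0910), without control replicate 3 (0.0588), without dKO replicate 1 (0.0977) and with only the 6 ImCD8 libraries in the fit (0.0732). Of 10 tested genes of innate-like T cells Cd44 and Fcgrt were higher and Id2 and Slamf1 lower, and their sum lay between 707 and 861 CPM in the control libraries and between 631 and 722 CPM in the dKO libraries. Regulatory T cell markers summed to 371 to 502 and 315 to 470 CPM, and 0 of 10 were called by edgeR or DESeq2, although 3 had an unadjusted p under 0.05. The part of these cells in the changes above was not tested.

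The effect in ImCD8 was then set against that in ImCD4, where 1797 genes were called (13.4%). The 2 comparisons share no library. A test of the difference of the 2 effects called 58 of 13383 genes (0.433%), 24 with a more positive and 34 with a more negative change in ImCD8, and 31 of these were among the 822 genes called in ImCD8. For the other 791 a difference between the populations did not pass, which does not show that the effects were equal. Id2 was lower in dKO ImCD8 as given above, whereas ImCD4 had 683, 643 and 764 CPM in control and 804, 753 and 914 CPM in dKO, overlapping groups. The difference of its log2 fold changes, ImCD8 minus ImCD4, was -1.57 ± 0.20 (SE, edgeR adjusted p = 0.00305). Slc2a3 fell in both populations, in ImCD4 from 128, 141 and 134 to 73.7, 76.8 and 83.9 CPM, and fell further in ImCD8, with a difference of -0.94 ± 0.12 (SE, edgeR adjusted p = 0.00143). Gpr183, higher in dKO ImCD8, had 195, 168 and 212 CPM against 194, 212 and 234 CPM in ImCD4, a difference of 0.99 ± 0.16 (SE, edgeR adjusted p = 0.00976). Eng, a TGF-beta coreceptor gene, had 67, 69.2 and 66.9 CPM in control and 48.3, 52.8 and 49.5 CPM in dKO ImCD8 but 46.4, 45.9 and 38.5 CPM against 65.2, 58 and 57 CPM in ImCD4, changes in opposite directions that differed by -0.89 ± 0.12 (SE, edgeR adjusted p = 0.00258). The transcription regulator gene Mn1 did the reverse, rising from 2.80, 1.83 and 1.70 to 5.84, 4.23 and 4.66 CPM in ImCD8 and falling from 10.5, 8.40 and 7.84 to 3.39, 3.54 and 4.49 CPM in ImCD4, with a difference of 2.42 ± 0.33 (SE, edgeR adjusted p = 0.00258). The Notch3 fall also differed, by -2.10 ± 0.42 (SE, edgeR adjusted p = 0.0342): ImCD4 had 2.59, 4.97 and 3.50 CPM in control and 2.23, 2.39 and 2.57 CPM in dKO.

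**Figure D5:**
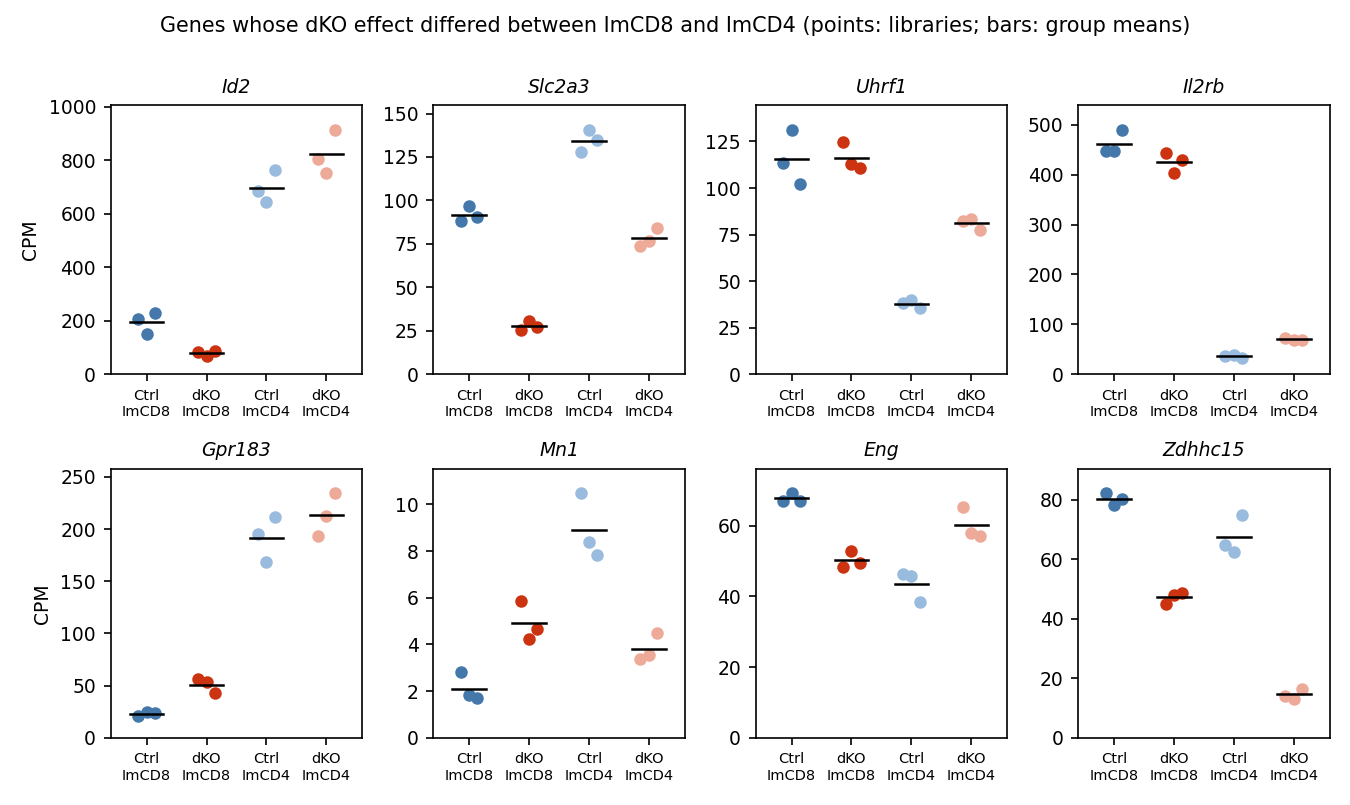
CPM (y axes from 0) of 8 genes whose dKO effect differed between ImCD8 and ImCD4 in the 12 libraries; points are libraries in the order of replicates 1 to 3 and bars are group means. Id2 drops in ImCD8 and not in ImCD4, and Slc2a3 drops in both, further in ImCD8. Uhrf1 and Il2rb are higher in dKO ImCD4 and nearly level in ImCD8, and Eng and Mn1 move in opposite directions.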

How the data were processed

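RNA of sorted thymocytes was sequenced in 12 libraries (low-input SMARTer kit, per the labels' protocols). Per the submitters' processing notes, cutadapt 1.18, STAR 2.6.1 and HTSeq were used with mm10. Neither annotation nor strand setting is given in the sources used here. The deposited values are the authors' raw counts per gene symbol, 53656 gene rows and 5 summary rows per library, with no normalization. Summary rows stayed out of library sizes. Reads outside genes made up 10.6% to 14.0%, ambiguous reads 5.57% to 5.82% and multiply aligned reads 4.47% to 5.39% of tallied reads in ImCD8.

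The main tool was edgeR 4.0.16 (R 4.3.3): filterByExpr (minimum count 10, minimum total 15), TMM scaling, and 1 robust quasi-likelihood fit of all 12 libraries with a mean per group, which leaves 8 residual degrees of freedom. Tests were two-sided with Benjamini-Hochberg adjustment over 13383 genes and a threshold of 0.05, which defines "called". CPM use TMM-scaled library sizes. Exact permutation of 3 against 3 cannot go below p = 0.1. The labels give no replicate numbers, so those used here follow record order and no block by number was fitted.

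Members, the 38 gene lists and marker lists were chosen with earlier results of these data known, and ribosomal protein genes were added later. Named genes are the targeted pair, 15 rises and 15 falls of largest size (called, at least 5 CPM in the higher group, no overlap), the 10 most abundant in each direction, up to 4 called members per list and direction, 8 per direction of the difference, genes within 500 kb of a targeted gene and markers. Uncalled list members and the 2 divergent pairs marked as such were named for their roles after values were seen. Genes with clone, predicted or RIKEN names, pseudogenes and receptor gene segments were left out, and not every gene taken by the rule is reported. Positions are from GENCODE M21 and sequences from RefSeq (GRCm38.p6). Alternatives were RLE factors, library size only, DESeq2 1.42.0, limma-voom (limma 3.58.1) with quality weights, no filter, over 5 CPM in 3 libraries, only 6 libraries, each library left out, replicate 3 of each group left out or given a term, and other motifs and distances. The fit was tested on simulated data.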

Additional observations from a re-analysis of the deposited data

Results flagged for a closer look

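The size of the dKO effect differed between ImCD8 and ImCD4 for 23 named genes in the test of the difference (ImCD8 minus ImCD4, log2 scale, edgeR adjusted p). Of these, 16 were the 8 of smallest p in each direction. In 8 of the 16 the change was more positive in ImCD8. Zdhhc15, a palmitoyltransferase gene, fell less in ImCD8, by 1.45 ± 0.13 (SE, edgeR adjusted p = 6.97e-05), and so did Zfp281 itself, by 1.49 ± 0.19 (SE, edgeR adjusted p = 0.00170), where its control level was lower (128, 117 and 112 against 457, 441 and 562 CPM). Mn1 differed by 2.42 ± 0.33 (SE, edgeR adjusted p = 0.00258) and the phosphatase gene Dusp10 by 0.78 ± 0.12 (SE, edgeR adjusted p = 0.00449); both rose in ImCD8 and fell in ImCD4. The Dusp10 call in ImCD8 was lost without control replicate 1 (adjusted p = 0.0570), without control replicate 2 (0.0632), without control replicate 3 (0.0731), without dKO replicate 2 (0.0711), without dKO replicate 3 (0.0672), with only the 6 ImCD8 libraries in the fit (0.0532) and without replicate 3 of all 4 groups (0.0954). Skil, a repressor gene of TGF-beta signalling, differed by 0.67 ± 0.10 (SE, edgeR adjusted p = 0.00449), the costimulatory ligand gene Cd86 by 2.58 ± 0.40 (SE, edgeR adjusted p = 0.00665), and Spats2 by 1.42 ± 0.22 (SE, edgeR adjusted p = 0.00665). These last 3 fell in ImCD4 and did not pass in ImCD8, with 186, 206 and 188 CPM of Skil in control and 198, 194 and 196 CPM in dKO. Gpr183 rose in ImCD8 and differed by 0.99 ± 0.16 (SE, edgeR adjusted p = 0.00976).

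In the other 8 of the 16 the change was more negative in ImCD8. Il2rb, the IL-2 and IL-15 receptor beta chain gene, differed by -1.07 ± 0.11 (SE, edgeR adjusted p = 0.000159), and Cd160, a receptor gene of cytotoxic cells, by -1.39 ± 0.16 (SE, edgeR adjusted p = 0.000667). Uhrf1 differed by -1.09 ± 0.13 (SE, edgeR adjusted p = 0.000748) and the growth factor gene Pdgfb by -3.30 ± 0.41 (SE, edgeR adjusted p = 0.00170). All 4 rose in ImCD4 and did not pass in ImCD8, where Pdgfb had 6.28, 7.89 and 8.29 CPM in control and 14.7, 11.1 and 7.62 CPM in dKO and Cd160 61.7, 53.9 and 53.7 CPM against 70.1, 69.3 and 69.7 CPM. Slc2a3 fell in both and differed by -0.94 ± 0.12 (SE, edgeR adjusted p = 0.00143). Plekho1 rose in both and differed by -0.96 ± 0.13 (SE, edgeR adjusted p = 0.00170), although its ImCD8 call was lost without control replicate 1 (adjusted p = 0.119), without control replicate 2 (0.175), without control replicate 3 (0.0505), without dKO replicate 1 (0.145), without dKO replicate 2 (0.0669), without dKO replicate 3 (0.0753), with library size only (0.0645), with limma-voom (0.0781) and with only the 6 ImCD8 libraries in the fit (0.0789). Eng differed by -0.89 ± 0.12 (SE, edgeR adjusted p = 0.00258) and Id2 by -1.57 ± 0.20 (SE, edgeR adjusted p = 0.00305). Control ImCD4 levels were far from those of control ImCD8 for several of these genes, 35.8 against 462 CPM for Il2rb, and the part of the starting level in the difference was not tested.

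The remaining 7 were named by another part of the rule. Aqp9 rose in both and differed by 1.21 ± 0.20 (SE, edgeR adjusted p = 0.00976), and Il17rb, also higher in both, by 1.92 ± 0.32 (SE, edgeR adjusted p = 0.0161). Cd40lg differed by 1.13 ± 0.22 (SE, edgeR adjusted p = 0.0265) and H2-T24 by 0.58 ± 0.11 (SE, edgeR adjusted p = 0.0243); both rose in ImCD8 and did not pass in ImCD4. Thy1 fell in both, less in ImCD8, and differed by 1.41 ± 0.22 (SE, edgeR adjusted p = 0.0112). Mcm3 fell in ImCD8 and rose in ImCD4, with a difference of -0.62 ± 0.12 (SE, edgeR adjusted p = 0.0342). Notch3 fell in ImCD8, did not pass in ImCD4, and differed by -2.10 ± 0.42 (SE, edgeR adjusted p = 0.0342). The ImCD8 calls of Thy1 and Mcm3 were lost in most fits without 1 library.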

How the results depend on the processing

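Of 125 named genes called in ImCD8, 76 were called in each of the 6 fits that left out 1 ImCD8 library and 72 in every alternative that gave a value. DESeq2 kept 797 of the 822 calls, with 12 at an adjusted p of NA, and 623 remained without replicate 3 of all 4 groups. The number called was 822, but 1280 without the filter, where 667 were higher and 613 lower, and 1420 with a term for replicate 3 of each group (658 higher, 762 lower). With only the 6 ImCD8 libraries 209 were higher, and 558 were called in all. Over the fits without 1 library the totals ran from 473 to 838, the higher calls from 159 to 447 and the lower calls from 314 to 392. The share of calls that were higher was 42.6%, and 53.3% without dKO replicate 2. The difference test gave 58 genes, 140 with DESeq2, 233 without the filter, 106 without replicate 3 of all 4 groups and 200 with a term for them, and 41 to 65 over the fits without 1 library. Scaling moved the median log2 fold change of all genes by less than 0.1. With GGGAGGGG in place of GGGGAGGGG 6 of the largest changes held the motif, and 3 with GGGGTGGGG. Depth limits genes of few counts: Ntn4 had 5 counts in the control and Serpinb9 25 in the dKO libraries. No paired analysis was possible because the labels give no replicate numbers; replicate 3 is the last library listed in each group, and the term for it above is no pairing. The cause of each shift was not tested.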
